A study of Rattus norvegicus with 6 samples.

Results

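Transcripts of Z-disc and titin-linked proteins were examined in the tibialis anterior of rats whose supplying nerve was divided and later rejoined. Members were all probe sets annotated with 1 of 7 gene symbols alone: Csrp3, Ankrd1, Ankrd2, Fhl1, Myoz1, Myoz2 and Actn3. Of the 7 genes, 6 had a probe set, 8 probe sets in all of the 15923 on the array, while Ankrd2 had none under its symbol and was not analysed here. All 8 passed the filter on dim probe sets, described below, and were tested.

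The animals were 3 male Wistar rats aged 8 weeks, numbered 4, 5 and 6, operated under ketamine and xylazine anaesthesia. In each rat the peroneal nerve, which supplies the tibialis anterior, was divided and stitched to the biceps femoris. Its proximal and distal stumps were joined after 4 weeks, and survival was 8 weeks, read here as counted from that repair. Total RNA of the ipsilateral and of the contralateral muscle went on 1 array each, 6 in all, with 3 per group. The contralateral muscles came from the same operated animals, so no group of unoperated rats enters the comparison. In whole muscle, fewer fibres of a type and less RNA per fibre cannot be told apart.

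The Z-disc is the plate at the end of each sarcomere, where thin filaments of neighbouring sarcomeres are crosslinked by alpha-actinin and where the elastic protein titin is anchored. Several proteins bound there or along the titin filament also enter the nucleus or bind signalling enzymes, and they are regarded as sensors of stretch and load in muscle. Csrp3 (muscle LIM protein), Ankrd1 and Ankrd2 (muscle ankyrin repeat proteins that bind titin) and the LIM protein Fhl1 are known for responses to stretch or load. Myoz1 and Myoz2 (the calsarcins, which bind alpha-actinin and the phosphatase calcineurin) and the alpha-actinin Actn3 are known for their fibre type, Myoz1 and Actn3 for fast and Myoz2 for slow fibres. Csrp3 and Ankrd2 are also more abundant in slow than in fast fibres, so the roles overlap.

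Promoter sequences were found for 5 of the 7 genes in RefSeq (rat assembly GRCr8), and those of Csrp3 and Ankrd1 were not used here. The 250 bases before the annotated start are shown for the calsarcin pair, whose measured differences had opposite signs, and for both annotated starts of Fhl1, whose pair of probe sets gave unequal differences. Neither Fhl1 probe set was assigned to a start, so the windows say nothing about that inequality. They lie at chr2:213852779-213853028 (minus strand) for Myoz2 and at chr15:3693363-3693612 (plus strand) for Myoz1. The windows of Fhl1 are chrX:139638246-139638495 and chrX:139645222-139645471, both on the plus strand. Sequences run 5′ to 3′ on the gene's strand, and capitals mark matches to any of 4 motifs searched on both strands.
Myoz2: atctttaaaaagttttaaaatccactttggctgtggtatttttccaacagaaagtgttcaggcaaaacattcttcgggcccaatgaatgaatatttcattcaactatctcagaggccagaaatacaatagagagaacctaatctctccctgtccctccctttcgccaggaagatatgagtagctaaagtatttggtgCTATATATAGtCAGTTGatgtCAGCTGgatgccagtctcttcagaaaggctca
Myoz1: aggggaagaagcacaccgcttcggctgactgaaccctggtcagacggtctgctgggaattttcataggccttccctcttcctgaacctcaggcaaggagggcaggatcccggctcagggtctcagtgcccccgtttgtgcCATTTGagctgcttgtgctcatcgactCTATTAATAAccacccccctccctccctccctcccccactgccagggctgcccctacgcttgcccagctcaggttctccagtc
Fhl1, upstream start: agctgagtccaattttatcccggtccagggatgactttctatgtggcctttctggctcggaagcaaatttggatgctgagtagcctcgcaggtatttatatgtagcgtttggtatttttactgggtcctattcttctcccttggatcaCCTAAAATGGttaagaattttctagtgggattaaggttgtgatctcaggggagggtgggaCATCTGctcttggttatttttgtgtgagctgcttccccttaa
Fhl1, downstream start: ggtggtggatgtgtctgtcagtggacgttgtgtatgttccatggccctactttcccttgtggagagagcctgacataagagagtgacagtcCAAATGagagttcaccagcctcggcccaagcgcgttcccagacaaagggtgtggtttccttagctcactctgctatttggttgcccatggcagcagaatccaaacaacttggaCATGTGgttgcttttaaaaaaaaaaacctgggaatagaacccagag
The motifs were CATTCC, the core bound by TEAD factors, the E-box CANNTG of myogenic basic helix-loop-helix factors, the CArG box of serum response factor and the MEF2 consensus. Both calsarcin windows held 1 MEF2 match, at positions -53 to -44 relative to the start for Myoz2 and -83 to -74 for Myoz1, where 2.96% of all 33469 promoters of this length held one. Myoz2 had 2 E-boxes and Myoz1 had 1, a motif present in 65.5% of promoters. The upstream Fhl1 window held a CArG box at -102 to -93, which 1.5% of promoters held, and the windows of Fhl1 held 1 and 2 E-boxes. CATTCC, held by 12.1% of promoters, occurred in none of the windows of the 5 genes, and the window of Actn3 matched none of the 4 motifs. No match overlapped another motif. These are descriptions of letters, and no binding was measured.

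The values are linear probe set intensities, scaled to a trimmed mean of about 150 on every array. Differences below are log2 of ipsilateral over contralateral intensity within an animal, after adding a pseudocount of 15.8 to each value. Their standard errors (SE) and p-values come from limma's fit with the animal as a block over 9519 probe sets, namely those above an intensity of about 42.4 on average, and p-values were adjusted by the Benjamini-Hochberg method over all of them. Median intensities ran from 60.3 to 66.6. Both libraries of animal 4 stood apart in the hybridisation spike cre (1116.9 and 1476.2, against 2480.8 to 3605.1 in the other 4), while the 3′ actin probe set exceeded the middle one 2.77-fold in the contralateral library of animal 4, 2.87-fold in the ipsilateral library of animal 6 and 1.36 to 1.68-fold elsewhere. The actin ratio did not single out animal 4, as it was highest in the ipsilateral library of animal 6. The part of these measures in the differences below was not tested. Results are given per animal, and fits were also made without each animal in turn. The muscle markers Acta1 and Ckm were at 5212.3 to 7388.5 and 5876.7 to 8246.9 over the 6 libraries. The cardiac markers Myh6, Tnnt2, Tnni3 and Nppa, searched because Csrp3, Ankrd1 and Myoz2 are also heart genes, were all below the filter. The brightest probe set of each gene gave a summed intensity of 68.7 to 81.5 contralaterally and 73.3 to 90.4 ipsilaterally. Outside this sum, the dimmer Tnnt2 probe set read 22.6, 2.3 and 5.4 contralaterally in animals 4, 5 and 6. Ipsilaterally it read 17.2, 77.2 and 35.6. Its difference was 1.14, against -0.08 on the brighter Tnnt2 probe set.

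The question was how the formerly denervated muscle differed from its contralateral partner. Ankrd1 and Csrp3 were higher in the ipsilateral muscle of every animal, with mean differences of 1.82 to 2.05 and of 1.64. Myoz2 was higher in animals 5 and 6 but not in animal 4. Actn3 and Myoz1, the fast-fibre members, were lower in every animal by smaller amounts, and the probe sets of Fhl1 gave 0.05 and 0.43. None of the 8 had an adjusted p under 0.05, and neither had any of the 9519 tested probe sets (0%).

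At an unadjusted p under 0.05, 6 of the 8 member probe sets passed, 5 higher and 1 lower, where 6.36% of all tested probe sets passed, 3.57% higher and 2.78% lower. With the animals not paired in the fit, 5 of the 8 passed, the dimmer Fhl1 probe set no longer. Without animal 4, 7 of the 8 passed, but so did 1491 of all 9519 tested probe sets. Without animal 5 or 6, 5 of the 8 passed, beside 223 and 389 of all tested probe sets in the respective fits. Since the members were chosen with earlier results of these data known, this count describes them and is not independent evidence. The 8 probe sets stand for 6 genes, as Ankrd1 and Fhl1 have 2 each, so these counts are not of separate genes. A difference above 1 was found for 3 of the 8, namely Csrp3 and both Ankrd1 probe sets, against 0.347% of all tested probe sets. The groups did not overlap for 5 of the 8, 3 higher and 2 lower, where 4.74% and 5.78% of all tested probe sets were without overlap in these directions. The same sign in all 3 animals was found for 4 higher and 2 lower, against 12.3% and 15.2%.

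**Figure D1:**
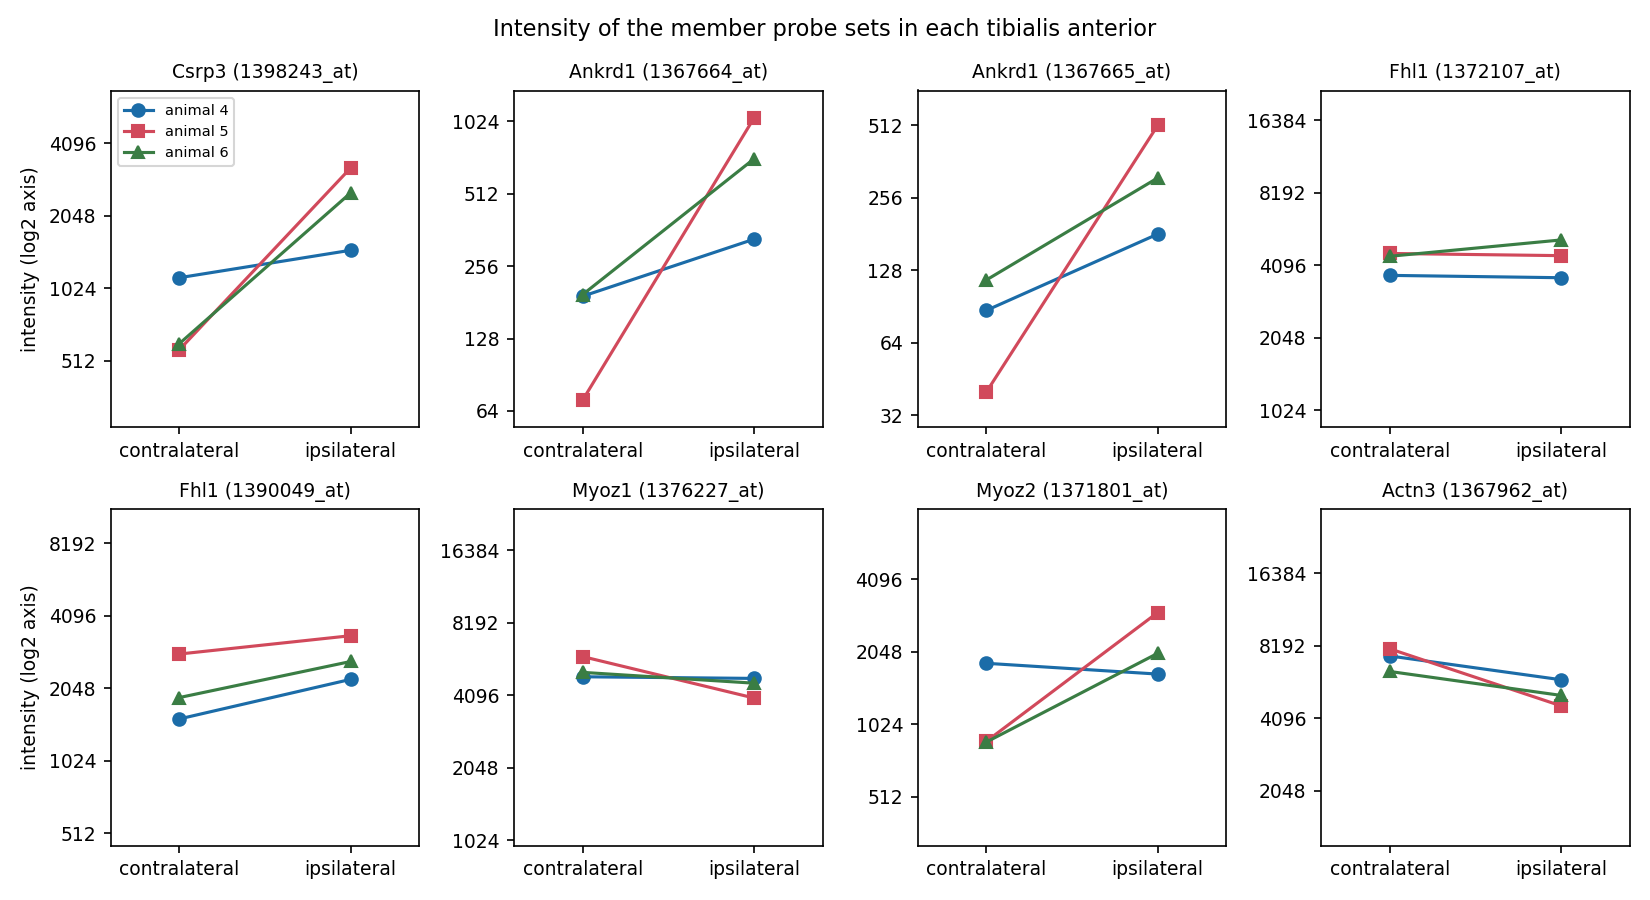
Intensity (log2 axis, each panel spanning the same ratio) of the 8 member probe sets in the contralateral and ipsilateral muscle, 1 line per animal. Lines of Csrp3 and Ankrd1 go up in all 3 animals, those of Actn3 go down in all 3, and the line of animal 4 is nearly level for Myoz2.

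Csrp3, the muscle LIM protein of the Z-disc, read 1132.6 (animal 4), 568.5 (animal 5) and 602.7 (animal 6) contralaterally, and 1473.0, 3238.5 and 2551.3 ipsilaterally. The groups did not overlap, but animal 4 had both the highest contralateral and the lowest ipsilateral value. The difference was 1.64 (SE 0.32), with a 95% interval of 0.91 to 2.36 and an adjusted p of 0.333. Per animal it was 0.37, 2.48 and 2.05, in the order of animals 4, 5 and 6 used throughout. Ipsilateral over contralateral intensity was thus 1.3, 5.7 and 4.23-fold. Without animal 4, in a fit left with 1 residual degree of freedom, the difference was 2.27 (SE 0.15, adjusted p = 6.01e-05). Without animal 5 it was 1.21 (SE 0.35) and without animal 6 it was 1.43 (SE 0.42), and neither passed the adjusted threshold.

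Ankrd1, a titin-bound ankyrin repeat protein that is low in resting muscle and known to be induced by stretch and by denervation, was measured by 2 probe sets. The brighter one read 191.8, 71.1 and 194.9 contralaterally and 331.0, 1057.2 and 714.0 ipsilaterally. Its groups did not overlap, and the lowest contralateral and the highest ipsilateral value both came from animal 5. The difference was 2.05 (SE 0.41), with a 95% interval of 1.12 to 2.98 and an adjusted p of 0.333, and it was 0.74, 3.63 and 1.79 per animal. It ranked 2nd from the highest among all 9519 tested probe sets, and Csrp3 ranked 8th.

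The dimmer probe set of Ankrd1 read 87.2, 39.9 and 116.6 contralaterally and 181.0, 511.5 and 309.6 ipsilaterally. Its difference was 1.82 (SE 0.36, adjusted p = 0.333), with 0.93, 3.24 and 1.30 per animal, so both probe sets had the same sign and the same order of animals. Over the 6 libraries, which share animals and the contrast between legs, their log2 values correlated at 0.993. The spread between animals was wide, with a standard deviation of the within-animal differences of 1.46 for the brighter and 1.24 for the dimmer probe set, against 1.11 for Csrp3. Without animal 4, the differences were 2.71 (SE 0.32, adjusted p = 0.00111) and 2.27 (SE 0.33, adjusted p = 0.0055). Without animal 5, they were 1.27 (SE 0.28) and 1.12 (SE 0.21). Without animal 6, they were 2.18 (SE 0.57) and 2.09 (SE 0.47). In the fits without animal 5 or 6, neither probe set passed the adjusted threshold.

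Fhl1, an abundant LIM protein of skeletal muscle, gave unequal results on its 2 probe sets. The brighter one read 3711.6, 4577.0 and 4454.6 contralaterally and 3629.2, 4482.1 and 5208.5 ipsilaterally, and the groups overlapped. Its difference of 0.05 (SE 0.12, adjusted p = 0.952) had a 95% interval of -0.21 to 0.32, and it was -0.03, -0.03 and 0.22 per animal. With 3 animals the interval included 0, and true differences between these bounds were not excluded.

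The dimmer Fhl1 probe set read 1524.6, 2836.3 and 1870.5 contralaterally and 2226.6, 3379.8 and 2641.4 ipsilaterally. Ipsilateral values were higher in every animal, although the groups overlapped because animal 5 was high in both legs. The difference was 0.43 (SE 0.13, adjusted p = 0.545), with 0.54, 0.25 and 0.49 per animal. It was the 1 member probe set whose largest difference came from animal 4, and its standard deviation between animals, 0.16, was close to the 0.15 of the brighter Fhl1 probe set. Over the 6 libraries the pair correlated at 0.57.

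**Figure D2:**
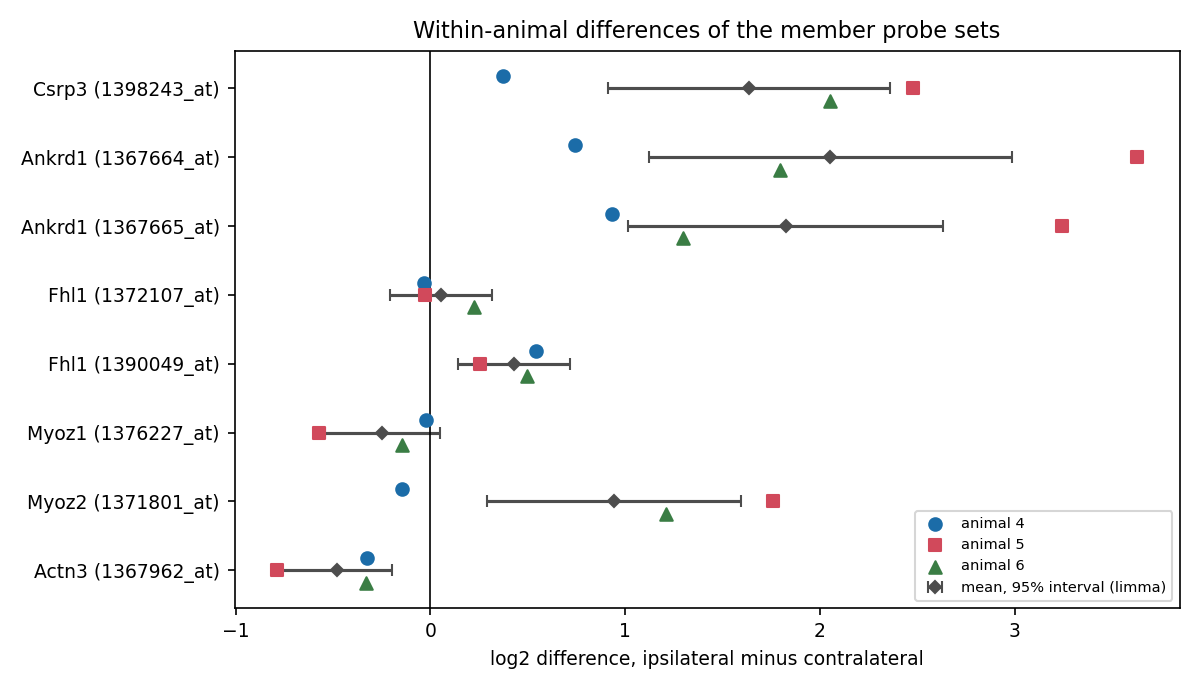
Log2 difference, ipsilateral minus contralateral, of each member probe set in animals 4, 5 and 6, with limma's mean and 95% interval. The intervals of Csrp3, Ankrd1, Myoz2 and the dimmer Fhl1 probe set lie above 0 and that of Actn3 below it, while animal 4 lies nearest to 0 for Csrp3, Ankrd1 and Myoz2.

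Myoz2, the slow-fibre calsarcin, read 1835.9, 869.5 and 863.9 contralaterally and 1656.0, 2982.5 and 2019.2 ipsilaterally. Animal 4 set the overlap of the groups, with a contralateral value above its own ipsilateral one. The difference was 0.94 (SE 0.29), with a 95% interval of 0.29 to 1.59 and an adjusted p of 0.559. Per animal it was -0.15, 1.76 and 1.21, which is 3.43-fold and 2.34-fold for the latter pair. Without animal 4 the difference was 1.48 (SE 0.16, adjusted p = 0.000873). It was 0.53 without animal 5 and 0.81 without animal 6, and neither passed the adjusted threshold.

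Myoz1, the fast-fibre calsarcin, was among the brightest probe sets of the array, at 4898.7, 5940.3 and 5109.2 contralaterally and 4822.4, 3996.6 and 4607.0 ipsilaterally. The groups did not overlap, but the gap between contralateral 4 and ipsilateral 4 was small against the spread within each group. The difference was -0.25 (SE 0.13), with a 95% interval of -0.54 to 0.05 and an adjusted p of 0.781, and it was -0.02, -0.57 and -0.15 per animal. It was -0.12 after quantile normalization and -0.09 without animal 5.

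Actn3, the alpha-actinin of fast fibres, read 7418.0, 7943.7 and 6395.0 contralaterally and 5907.4, 4601.7 and 5085.9 ipsilaterally. All 3 ipsilateral values lay below all 3 contralateral ones. The difference was -0.48 (SE 0.13), with a 95% interval of -0.76 to -0.20 and an adjusted p of 0.501, and it was -0.33, -0.79 and -0.33 per animal. Quantile normalization reduced it to -0.30. Without animal 4 it was -0.56 (SE 0.15, adjusted p = 0.081).

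**Figure D3:**
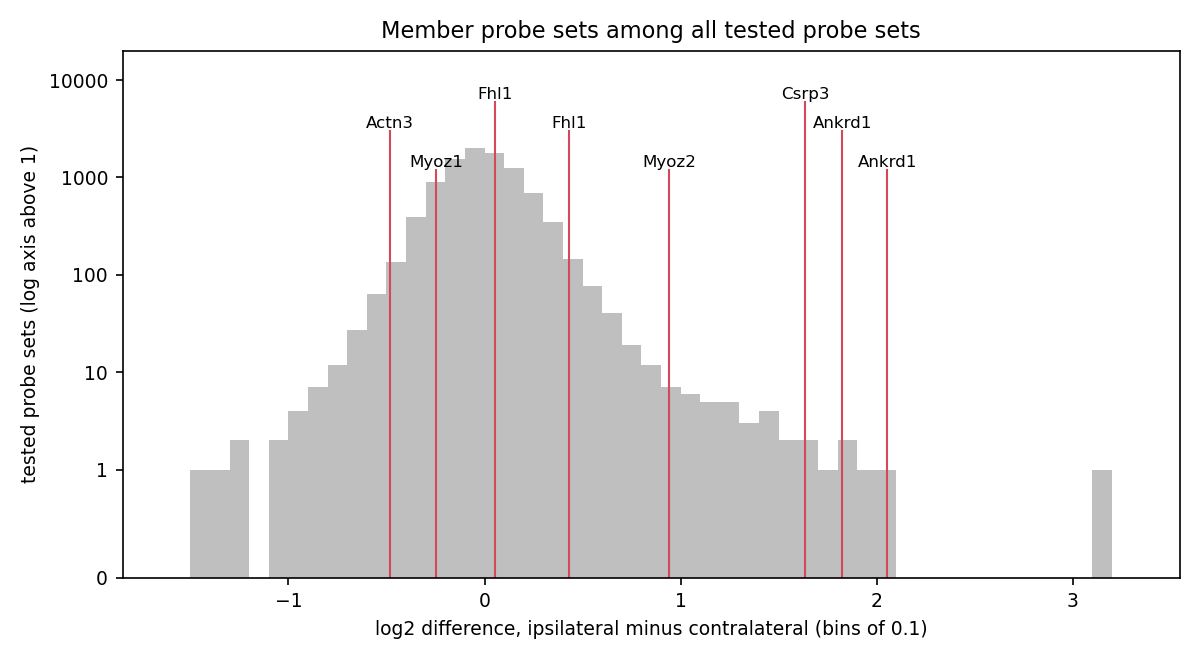
Number of tested probe sets (log axis above 1) by log2 difference in bins of 0.1, with the 8 member probe sets as vertical lines whose heights only separate the labels. Csrp3 and Ankrd1 lie in the sparse upper tail and Myoz2 at its foot. Actn3 and the dimmer Fhl1 probe set lie towards the edges, and Myoz1 and the brighter Fhl1 probe set within the bulk.

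Animal 4 had the lowest difference of the 3 animals for Csrp3, both Ankrd1 probe sets and Myoz2. For Ankrd1, animal 5 lay farthest from the other two. For Csrp3 and Myoz2 the contralateral muscle of animal 4 was the highest of the 3 and its ipsilateral muscle the lowest, so both legs contributed. For Ankrd1 the ipsilateral muscle of animal 4 was the lowest on both probe sets, while its contralateral muscle lay between those of animals 5 and 6. For Actn3 the differences of animals 4 and 6 were nearly equal. Leaving out animal 4 gave 241 of all tested probe sets an adjusted p under 0.05 (2.53%), and Csrp3, both Ankrd1 probe sets and Myoz2 were among them. Without animal 5 or without animal 6, 0 probe sets passed, with 223 and 389 at an unadjusted p under 0.05 in the respective fits.

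The fibre-type-bound members were set beside markers of slow and fast fibres, which are transcribed in the same fibres. The 8 slow-fibre markers, all tested, had a median difference of 1.12, with 0.19, 1.90 and 1.11 per animal, and 7 of the 8 were higher at an unadjusted p under 0.05. That median rests on the brightest probe set of each gene, and the mean over a gene's tested probe sets gave 0.80. Myh7, the slow myosin heavy chain, was higher by 1.71 (SE 0.36). The 9 fast-fibre markers had a median of -0.25, with -0.24, -0.48 and -0.03 per animal, and 2 of the 9 were lower at that threshold. These were Myh4 (-0.92, SE 0.19) and Mybpc2 (-0.39, SE 0.13). The list did not share 1 direction, as the means of Myh2 (0.31, SE 0.15) and of the brightest Myh1 probe set (0.21, SE 0.14) were above 0. That Myh1 probe set gave 0.52, 0.16 and -0.05 per animal. Other tested Myh1 probe sets gave means of 0.24, 0.08, -0.03 and -0.01. Over all 7117 tested named genes the median was -0.02, with 252 higher and 205 lower at that threshold.

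Myoz2 minus the slow-fibre median was -0.34, -0.14 and 0.10 per animal (mean -0.13, SD 0.22), and in animal 4 Myoz2 (-0.15) and that median (0.19) had opposite signs. Csrp3 exceeded that median by 0.18, 0.57 and 0.95 (mean 0.57, SD 0.38), and the brighter Ankrd1 probe set by 0.55, 1.72 and 0.69 (mean 0.98, SD 0.64). Among the fast-fibre members, Myoz1 minus the fast-fibre median was 0.21, -0.09 and -0.12, and Actn3 minus that median was -0.09, -0.31 and -0.30. The 3 animals that give these remainders allow no exact two-sided p below 0.25, so they are given as values. The slow-fibre markers moved with Csrp3, Ankrd1 and Myoz2, and the part of fibre make-up in these differences was not tested.

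Relatives of the members were examined next, by protein family. In the family of cysteine and glycine-rich LIM proteins, Csrp1, a relative found mainly in smooth muscle, read 276.1, 364.0 and 295.8 contralaterally and 194.7, 297.3 and 267.3 ipsilaterally. Csrp1 was lower in every animal while Csrp3 was higher, with a mean of -0.30 (SE 0.15). Csrp2 was below the filter, at 19.6 to 30.1 contralaterally and 20.9 to 36.4 ipsilaterally.

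Ankrd23, the other muscle ankyrin repeat protein measured, read 2975.8, 3048.3 and 2916.1 contralaterally and 2886.5, 2741.6 and 2883.6 ipsilaterally. Its difference was -0.07 (SE 0.12), with -0.04, -0.15 and -0.02 per animal, beside 2.05 for Ankrd1. The groups of Ankrd23 did not overlap, but they lay within a narrow range in all 6 libraries.

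In the FHL family, Fhl2, which in heart ties metabolic enzymes to titin, was dim, at 60.4, 50.9 and 69.5 contralaterally and 99.6, 180.4 and 136.8 ipsilaterally. Fhl2 was higher by 1.0 (SE 0.20, adjusted p = 0.333), with 0.60, 1.56 and 0.84 per animal and no overlap. Its dimmer probe set, below the filter, gave 0.18 with overlapping groups. Fhl3, which is known to restrain myogenic transcription factors, read 1506.6, 1930.7 and 1546.1 contralaterally and 1221.4, 913.5 and 953.9 ipsilaterally. Fhl3 was lower, by a difference of -0.68 (SE 0.17, adjusted p = 0.442), with -0.30, -1.07 and -0.69 per animal and no overlap. The FHL genes thus differed in sign, with the Fhl1 probe sets between Fhl2 and Fhl3.

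Among the alpha-actinins, Actn2, the form present in all fibre types and in heart, read 1895.6, 1915.3 and 1583.3 contralaterally and 1719.5, 3101.6 and 3068.3 ipsilaterally. Actn2 differed by 0.50 (SE 0.19, adjusted p = 0.74), with -0.14, 0.69 and 0.95 per animal, opposite in sign to Actn3 in animals 5 and 6. The non-muscle forms Actn1 and Actn4 were dim, and their brightest probe sets gave 0.06 (SE 0.16) and 0.14 (SE 0.15). A dimmer Actn1 probe set gave 0.41, of which animal 4 accounted for 1.27 and the others for 0.01 and -0.06.

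Differences of genes of 1 family can be subtracted within each animal. This was done for 4 pairs chosen after their values were seen, so the values are a description and no p is given. Csrp3 exceeded Csrp1 by 1.93 (SD 0.98), Ankrd1 exceeded Ankrd23 by 2.12 (SD 1.52) and Actn2 exceeded Actn3 by 0.98 (SD 0.69), each in all 3 animals. Myoz2 exceeded Myoz1 by 1.19 (SD 1.24), with -0.12, 2.33 and 1.36 per animal. Signs in the mean of these genes were the same after quantile normalization and after median centring.

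**Figure D4:**
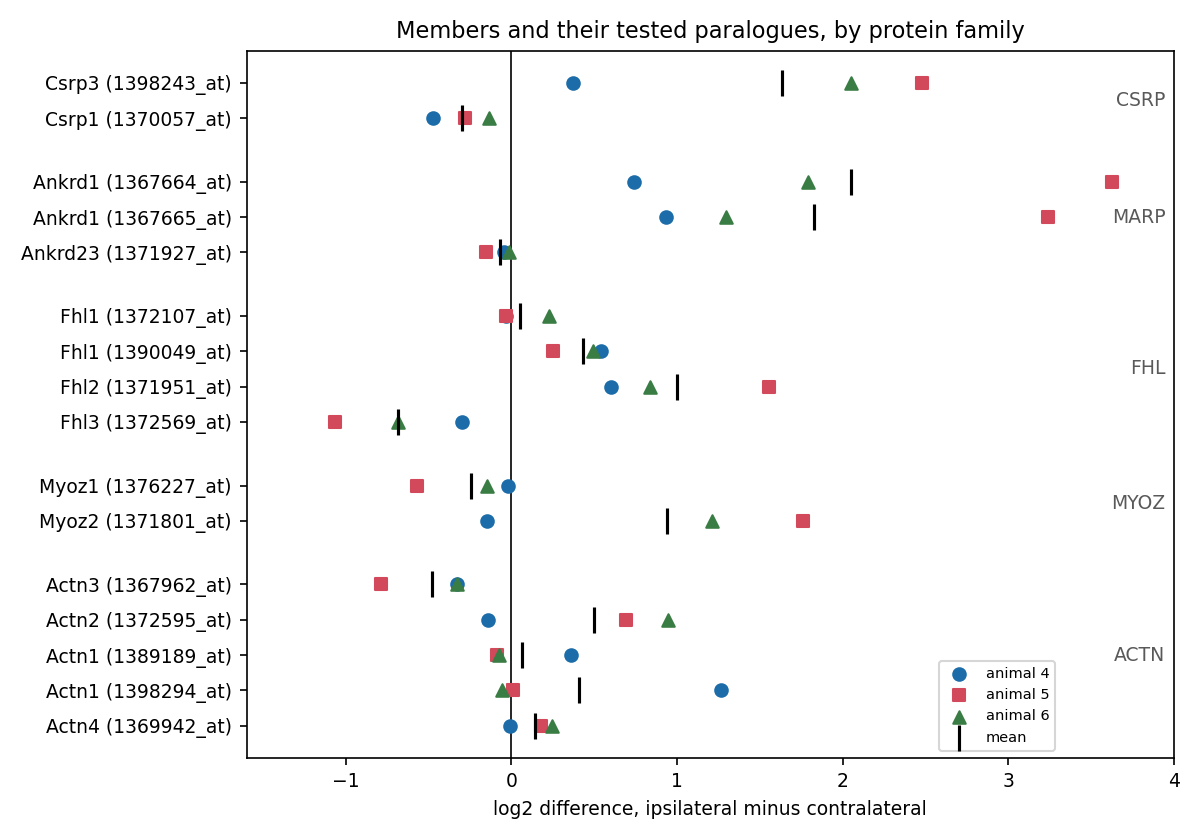
Log2 difference, ipsilateral minus contralateral, in animals 4, 5 and 6 and their mean for every tested probe set of the 5 protein families of the members. Csrp1, Ankrd23 and Fhl3 lie at or below 0 beside Csrp3, Ankrd1 and Fhl2, and Actn2 and Actn3 lie on opposite sides of 0 in animals 5 and 6.

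The members were then set among the other genes of the pathway, by lists chosen with earlier results of these data known. Of 15 genes for titin and its binding partners, 12 were on the array and tested, and their median difference was 0.10. At an unadjusted p under 0.05, 3 of the 12 were higher (Fhl2, Ttn and Smpx) and 0 lower, and 0 passed the adjusted threshold. Ttn, titin itself, read 2755.0, 3526.2 and 2942.0 contralaterally and 3098.1, 4168.5 and 4625.6 ipsilaterally, a difference of 0.35 (SE 0.13). Smpx, a small muscle protein linked to mechanical stress, differed by 0.46 (SE 0.17), with 0.08, 0.96 and 0.33 per animal. The small heat shock protein Cryab, which protects titin, differed by 0.20 (SE 0.12), and Tcap, the titin cap that binds Csrp3, by -0.17 (SE 0.12). The titin-bound ubiquitin ligase Trim63 differed by -0.22 (SE 0.15).

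Of 43 other Z-disc and costamere genes, 37 were on the array and 32 were tested, with a median of 0.08. Of the 32, 4 were higher and 2 lower at an unadjusted p under 0.05, and 0 passed the adjusted threshold. Besides Fhl3 and Actn2, these were Lmcd1, Xirp1, Cap2 and Pdlim7. Lmcd1, a LIM protein that has been tied to calcineurin, read 375.4, 286.9 and 412.3 contralaterally and 371.8, 931.7 and 740.3 ipsilaterally, a difference of 0.82 (SE 0.26). Its differences per animal were -0.01, 1.65 and 0.82, so that, as for Myoz2, animals 5 and 6 carried the mean. Xirp1, an actin-binding protein of damaged and remodelling fibres, was higher by 0.53 (SE 0.18) without overlap. Pdlim7, a PDZ and LIM protein of the Z-disc, differed by -0.62 (SE 0.19), with -0.10, -1.07 and -0.70 per animal. Its dimmer probe set gave -0.20 (SE 0.16), with -0.07, -0.41 and -0.12. Cap2, a regulator of actin filaments, differed by 0.43 (SE 0.18), with -0.02 in animal 6. The difference was 0.30 (SE 0.15) for nebulin (Neb), 0.32 (SE 0.18) for filamin C (Flnc) and -0.19 (SE 0.13) for desmin (Des).

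Genes outside the Z-disc that are linked to responses to load did not share 1 direction. Of 22 such genes, 14 were tested, with a median of -0.0050, and 2 were higher and 2 lower at an unadjusted p under 0.05. Ccn2, connective tissue growth factor, read 528.3, 197.9 and 229.4 contralaterally and 570.1, 1336.7 and 669.7 ipsilaterally. Its difference was 1.42 (SE 0.37), with 0.11, 2.66 and 1.48 per animal. The small heat shock protein Hspb7, a partner of filamin C, was higher by 1.13 (SE 0.28), with 0.05, 1.80 and 1.55 per animal. The immediate early genes Egr1 and Fos, induced within minutes of many stimuli, were lower in every animal, by means of -0.51 (SE 0.15) and -0.41 (SE 0.15). Ccn1, Nppa, Nppb and Myc were below the filter.

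Calcineurin, the phosphatase that the calsarcins hold at the Z-disc, was covered by 10 tested genes of its pathway, with a median of 0.05. By the brightest probe set of each gene, Rcan1, a calcineurin inhibitor that the pathway itself induces, was the 1 of the 10 past an unadjusted p of 0.05, at 230.1, 223.9 and 251.3 contralaterally and 334.2, 637.1 and 400.2 ipsilaterally. Its difference was 0.86 (SE 0.20, adjusted p = 0.385), with 0.51, 1.45 and 0.64 per animal. The dimmer probe set of its relative Rcan2 read 164.0, 206.3 and 216.2 contralaterally and 151.9, 110.5 and 98.9 ipsilaterally, lower in all 3 animals without overlap. Its difference was -0.64 (SE 0.19, adjusted p = 0.549), against -0.23 (SE 0.17) on the brighter Rcan2 probe set. The catalytic subunits Ppp3ca and Ppp3cb differed by 0.05 (SE 0.14) and -0.31 (SE 0.15). Without animal 4, an adjusted p under 0.05 was reached by 1 of the 12 titin genes (Fhl2), 5 of the 32 Z-disc genes (Actn2, Lmcd1, Xirp1, Fhl3 and Pdlim7), 2 of the 14 load-linked genes (Ccn2 and Hspb7) and 1 of the 10 calcineurin genes (Rcan1), against 2.53% of all tested probe sets. In the same fit it was reached by 7 of the 8 slow-fibre markers, 2 of the 3 adipocyte markers (Cfd and Lpl) and 1 of the 9 fast-fibre markers (Myh4). It was reached by 0 of the general muscle, fibroblast and tendon, smooth muscle and pericyte, endothelial and macrophage markers tested.

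**Figure D5:**
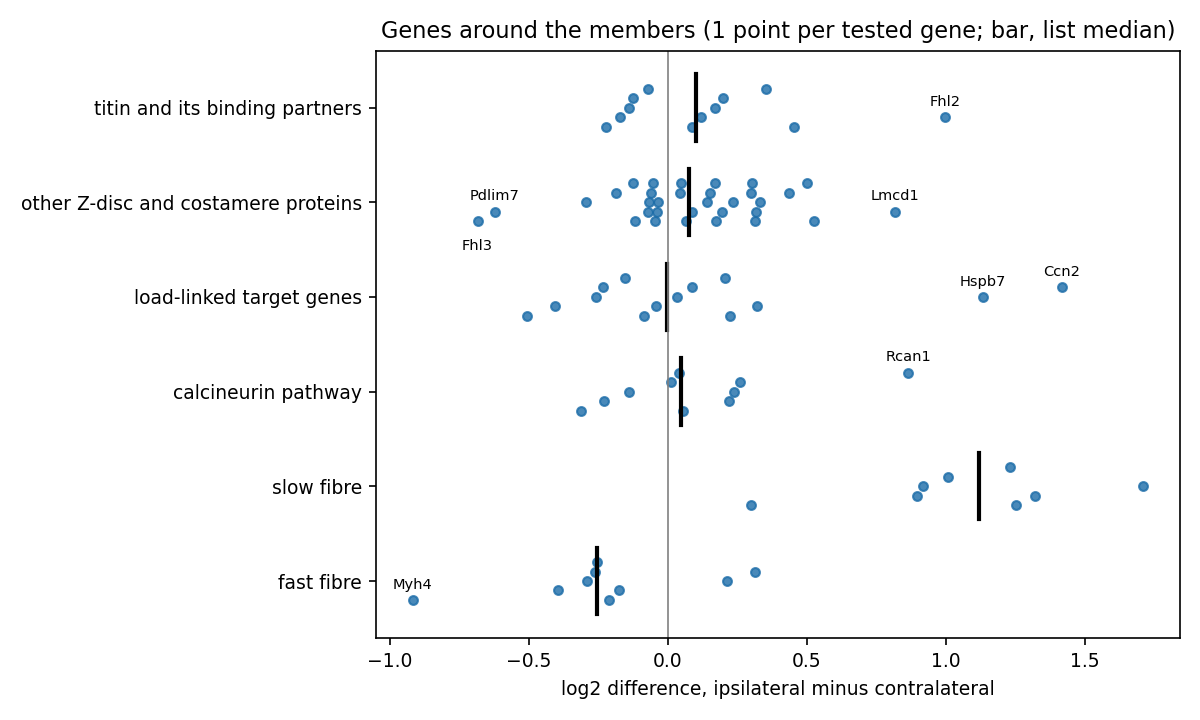
Log2 difference, ipsilateral minus contralateral, of each tested gene (its brightest probe set) in 4 pathway lists and 2 fibre-type lists, with a bar at each list's median. The 4 pathway lists centre near 0 with single genes far out, whereas the slow-fibre genes centre at 1.12.

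Markers of other cells were measured beside the members, because Fhl1, Csrp1 and Ankrd1 are not specific to muscle fibres. Of the fibroblast and tendon markers, 3 of 8 tested were higher and 0 lower at an unadjusted p under 0.05, with a summed intensity of 9754.0 to 10955.9 contralaterally and 9701.0 to 11392.7 ipsilaterally. Of the macrophage markers, 0 of 4 were higher and 2 lower (summed 520.1 to 678.7 and 421.7 to 626.5). Of the adipocyte markers, 3 of 3 were higher (summed over 4 genes, 1907.2 to 2598.5 and 2258.4 to 3837.3), and of the endothelial markers 1 of 3 was higher (330.8 to 415.6 and 406.9 to 633.3). None of the 4 tested smooth muscle and pericyte markers passed in either direction (summed over 6 genes, 614.5 to 932.3 and 627.5 to 780.7). No marker gene of these lists was listed at 0 in any library. The part of other cells in the differences of the members was not tested.

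Finally, the genes most like each member were sought, by the correlation of log2 values over the 6 libraries among 7117 tested genes. With so many genes and 6 libraries that share animals and the contrast between legs, high coefficients are common, and they are given as descriptions. Most like Csrp3 were Bex1 (r = 0.996), Mfap4 (0.989), Tnni1 (0.986) and Gask1b (0.985). Tnni1 is the slow-fibre troponin I, and Mfap4 a protein of matrix microfibrils. Most like Ankrd1 were Myh7 (0.996), Orc4 (0.994), Sfxn4 (0.991) and Tceal9 (0.991). Myoz2 was nearest to Pbdc1 (0.995), Itpr1 (0.994), Cc2d2a (0.992) and Ccn2 (0.990).

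The bright Fhl1 probe set was nearest to Pdhb (0.992), Mdh1 (0.989), Bud13 (0.984) and Acadvl (0.979). Of these, Pdhb and Acadvl encode mitochondrial enzymes. Myoz1 was nearest to Dhrs7c (0.995), a sarcoplasmic reticulum enzyme of muscle, then to Ttc19 (0.987), Fn3k (0.987) and Polr1b (0.986). Actn3 was nearest to Alg2 (0.999), Tmem38a (0.997), Stk40 (0.995) and Plpp7 (0.994). Tmem38a encodes a cation channel of the sarcoplasmic reticulum. Among the members themselves, Csrp3 correlated with Myoz2 at 0.953 and with the brighter Ankrd1 probe set at 0.947, whereas Ankrd1 correlated with Actn3 at -0.97 and Csrp3 with Myoz1 at -0.90.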

How the data were processed

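Each of 6 rat expression arrays measured total RNA of 1 muscle, and samples were grouped by their titles, with Cont read as contralateral. The deposited value table holds linear intensities. Which software made them was not given in the sources used here. The authors' values had a trimmed mean of about 150 on each array (2% off each end). A platform annotation gave 1 symbol to 12789 of 15923 probe sets; matching gene IDs to a RefSeq table changed 0 symbols.

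After removal of 57 control probe sets, log2(intensity + 15.8), with the pseudocount at the 20th percentile, was used without further normalization, because array medians lay within 0.115 of each other (limit 0.2). Probe sets above the 40th percentile of mean log2 value were fitted with limma 3.58.1 in R 4.3.3 (eBayes with trend, 2 residual and 7.47 prior degrees of freedom), with the animal as a fixed block. The median SE was 0.16. The pairing comes from the design, as both muscles are of 1 animal, and deviations from the group means correlated at -0.04, 0.07 and 0.13 in animals 4, 5 and 6. The procedure was also run on simulated data with independent noise and no differences between animals. That run does not bear on the spread between animals here. The members and lists were chosen with earlier results of these data known. Named genes were all members, up to 6 genes of smallest p per pathway list and the 4 genes most correlated with each member. Neb, Flnc, Des, Myh7, Myh4, Mybpc2, Myh2, Myh1, Ppp3ca, the dimmer Tnnt2 probe set and the paralogues were named after their values were seen. For lists, the brightest probe set stood for a gene. Alternatives covered the block, pseudocount, normalization, filter, variance trend, probe set choice and each animal. Samples are separate muscles, and the number of arrays limits precision. Python 3.11.15 with matplotlib 3.10.9 drew the figures.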

Additional observations from a re-analysis of the deposited data

How the results depend on the processing

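In the 7 alternatives that kept all 6 libraries (no replicate block, a pseudocount of 1 or at the 40th percentile, quantile normalization, median centring, no filter on dim probe sets, no variance trend), the 56 member values all kept their direction, 0 passed the adjusted threshold, and 0.309, in the fit that dropped the pairing block, was the lowest adjusted p. In each of these, 0 of all tested probe sets passed, as in the paired fit. There limma gave 605 of 9519 at an unadjusted p under 0.05, against 564 of 9519 without the block. Without the filter 863 of 15866 reached it. Dropping the filter raised the unadjusted limma p of every member probe set. For Csrp3 it went from 0.000583 to 0.00518, and the adjusted p from 0.333 to 0.879. The pairing block changed no call at the adjusted threshold, but without it the unadjusted p of the dimmer Fhl1 probe set went from 0.00812 to 0.0751. Taking the mean over a gene's probe sets gave list medians of 0.10 for titin partners, as before, and 0.15 for other Z-disc genes, against 0.08.

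Leaving out an animal, or 1 library of animal 4 without the pairing (a choice made after seeing the data), moved the count of all tested probe sets past the threshold between 0 and 241, the latter without animal 4, and gave 87 without ipsilateral 4. The difference ranged from 1.21 to 2.27 for Csrp3, 1.27 to 2.71 and 1.12 to 2.27 for Ankrd1, 0.53 to 1.48 for Myoz2, -0.36 to -0.09 for Myoz1, -0.58 to -0.33 for Actn3 and 0.23 to 0.57 for the dimmer Fhl1 probe set. The values nearest 0 for Csrp3, Ankrd1, Myoz2 and Myoz1 were those without animal 5. The brighter one ranged from -0.04 to 0.19 and turned its sign without animal 6 (-0.031) and without contralateral 4 (-0.040). Without ipsilateral 4 and the pairing, Csrp3 (1.95) and Ankrd1 (2.50 and 2.18) also passed, at adjusted p of 0.00832, 0.0102 and 0.0164, but Myoz2 did not. These fits have few degrees of freedom, and the cause of the dependence on animal 4 was not tested.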
